A study of Homo sapiens with 24 samples.

Results

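The transcripts described are those of 7 genes of the S100 family of calcium-binding proteins: S100A8, S100A9, S100A12, S100P, S100A11, S100A4 and S100A6. They were picked by name from 60611 genes (second pseudoautosomal entries left out), of which 31909 had a count in at least 1 library, and all 7 were found and passed the filter on low counts in both cell lines. Poly(A) RNA had been sequenced in 24 libraries of 2 leukaemia cell lines, 3 libraries for each of 8 groups. NB4 is labelled an acute promyelocytic leukaemia line and carries the PML-RARA fusion, and HL-60 is labelled a promyeloblast line and served as the non-APL leukaemia. Each line, labelled wild type, received all-trans retinoic acid (ATRA) together with arsenic trioxide (ATO), ATRA alone (1 µM), ATO alone (0.8 µM), or nothing, and drug exposure lasted 48 h. Doses within the combination and the culture time of the untreated cells are not given separately. Libraries of a group carry batch numbers, but no label states that they were grown as separate cultures, and the p-values therefore reflect only the spread among these libraries. The comparisons ask how each drug and their combination changed transcription in an APL line and in a non-APL line.

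S100 proteins are small proteins that bind calcium through a pair of EF-hand motifs and mostly act as dimers. S100A8 and S100A9 pair to form calprotectin, the most abundant protein of neutrophil cytosol, which sequesters zinc and manganese from microbes and, once released, acts on the receptors TLR4 and RAGE; S100A12 is another neutrophil member that is released in inflammation. S100P, S100A11, S100A4 and S100A6 are found in many cell types, where they bind partners such as annexins, ezrin, non-muscle myosin and the ubiquitin-ligase adaptor CACYBP.

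Of the 7 genes, 6 lie on chromosome 1 and S100P lies on chromosome 4 (6693069 to 6697170). On GRCh38 with GENCODE 29, S100A9 (153357854 to 153361027, plus strand), S100A12 (153373706 to 153375649, minus strand) and S100A8 (153390032 to 153391188, minus strand) are next to each other within 33.3 kb. S100A6 (153534599 to 153536244) and S100A4 (153543613 to 153550136) follow on the minus strand, and S100A11 (152032506 to 152047907, minus strand) lies 1310 kb from S100A9. No exon of the 7 genes overlapped an exon of another gene, apart from 23 bases of S100A6 shared with the antisense gene BX470102.1.

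The promoters of the 3 neighbouring neutrophil genes, which moved together with ATRA, and that of S100A4, which moved the other way, are shown so that the sequence around the start sites of genes that rose and of one that fell can be compared. Each runs from 250 bases before to 50 bases after the RefSeq start on GRCh38.p14, 5′ to 3′ on the strand of the gene, at chr1:153391139-153391438 (minus strand) for S100A8, chr1:153357604-153357903 (plus strand) for S100A9, chr1:153375572-153375871 (minus strand) for S100A12 and chr1:153545757-153546056 (minus strand) for S100A4. Capitals mark the searched letters on either strand. These were TATAAA for a box of that name, TTGCNNAA for the C/EBP family, GAGGAA for the factor PU.1 and AGGTCA for a half-site of retinoid receptors. On the opposite strand the PU.1 letters read TTCCTC.
S100A8: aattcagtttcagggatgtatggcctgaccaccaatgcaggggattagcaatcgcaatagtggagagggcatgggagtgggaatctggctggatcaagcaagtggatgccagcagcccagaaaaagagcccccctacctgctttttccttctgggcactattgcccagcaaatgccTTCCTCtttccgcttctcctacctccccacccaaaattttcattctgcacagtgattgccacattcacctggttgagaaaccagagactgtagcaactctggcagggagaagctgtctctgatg
S100A9: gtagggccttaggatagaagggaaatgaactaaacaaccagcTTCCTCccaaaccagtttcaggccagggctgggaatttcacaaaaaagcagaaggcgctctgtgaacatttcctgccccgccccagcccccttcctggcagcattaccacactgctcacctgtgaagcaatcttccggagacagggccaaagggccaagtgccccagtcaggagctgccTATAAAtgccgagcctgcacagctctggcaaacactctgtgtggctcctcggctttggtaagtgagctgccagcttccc
S100A12: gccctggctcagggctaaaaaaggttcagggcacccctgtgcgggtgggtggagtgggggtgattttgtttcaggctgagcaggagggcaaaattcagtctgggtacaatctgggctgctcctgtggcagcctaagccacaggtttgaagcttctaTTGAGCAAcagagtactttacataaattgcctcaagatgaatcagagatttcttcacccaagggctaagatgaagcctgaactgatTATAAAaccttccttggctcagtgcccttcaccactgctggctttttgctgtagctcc
S100A4: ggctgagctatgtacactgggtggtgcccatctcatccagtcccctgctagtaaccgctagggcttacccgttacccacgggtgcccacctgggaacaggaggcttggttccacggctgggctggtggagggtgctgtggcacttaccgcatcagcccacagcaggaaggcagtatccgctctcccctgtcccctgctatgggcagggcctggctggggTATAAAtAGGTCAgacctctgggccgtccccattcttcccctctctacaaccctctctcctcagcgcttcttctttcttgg

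The letters of the TATA box were present in the promoters of S100A9, S100A12, S100P and S100A4, and in 11.5% of 35116 RefSeq promoters of the same length. The C/EBP letters were present in S100A12 and S100A11 (10.5% of all promoters), and the PU.1 letters in S100A8, S100A9 and S100P (27.9%). The retinoid half-site was found in S100A4 alone, where it begins 24 bases before the start, 1 base after the TATA box (13.8% of all promoters). A direct repeat of that half-site with a spacer of 5 bases was in 2 of the 35116 promoters and in none of the 7. Matches of such short letters describe the sequence and are not binding sites.

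Summed over the 7 genes, transcripts made up 0.102% of all counts in NB4 cells given both drugs, 0.0888% with ATRA, 0.022% with ATO and 0.0133% in untreated NB4 cells. In HL-60 cells the shares lay closer together, at 0.0417% with both drugs, 0.046% with ATRA, 0.0444% with ATO and 0.0296% without drug. Levels of different genes are compared here per kilobase of exon, in CPM (counts scaled to a library total of 1000000) per kb, as mean ± SD over 3 libraries. In untreated NB4 cells S100A11 stood at 100 ± 3.7 and S100A4 at 50.2 ± 3.1 CPM per kb, whereas S100P, S100A6, S100A9 and S100A8 all stood below 6 and S100A12 at 0. ATRA turned this order round in NB4: S100A9 reached 888 ± 235 CPM per kb and came first, and S100A8 (169 ± 29.9) and S100A11 (153 ± 11.3) followed within their spread. In HL-60 cells S100A11 kept the first place with ATRA at 296 ± 9.1 CPM per kb, above S100A9 at 137 ± 6.55. Per kilobase of the principal transcript in place of all exons, an alternative chosen after the data were seen, S100A9 led in NB4 with ATRA and S100A11 in HL-60 with ATRA as well. Other places changed by that measure. S100A4 stood above S100A11 in untreated HL-60 (226 and 201 CPM per kb) and above S100A9 in HL-60 with ATRA (165 and 137). In NB4 with ATRA, S100A8 (325) then stood well above S100A11 (175).

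**Figure D1:**
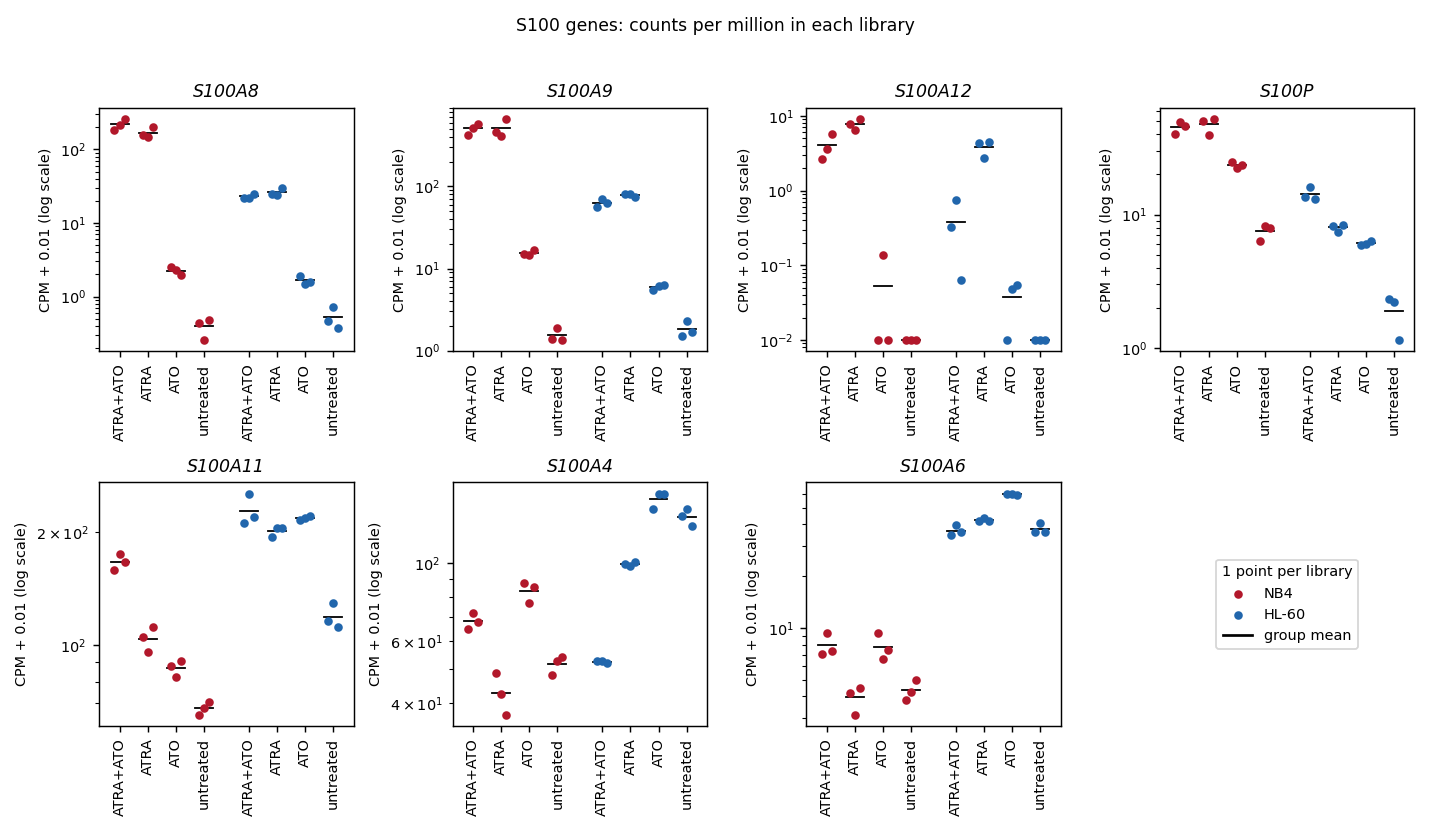
CPM plus 0.01 (log axis) of the 7 genes in each of the 24 libraries, NB4 in red and HL-60 in blue, with the combination, ATRA, ATO and untreated groups from left to right and a black line at each group mean. S100A8 and S100A9 stand far above the untreated libraries in both groups that received ATRA, while S100A12 is at 0 counts in all 6 untreated libraries.

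ATRA alone raised the neutrophil members by far the most. In NB4 cells 5 of the 7 genes rose (31.3% of 16370 tested genes were called higher), 1 fell (28.6% were called lower) and 1 was not called, by edgeR's quasi-likelihood test at a Benjamini-Hochberg adjusted p below 0.05 over all tested genes. In HL-60 cells 6 rose (25.2% of 15895 genes called higher) and 1 fell (23.3% called lower). The median log2 change of the 7 genes was 2.72 in NB4 and 2.11 in HL-60, with S100A12 at its lower bound, beside 0.03 and 0.01 over all tested genes. In bulk RNA, fewer cells with a transcript and less RNA per cell cannot be told apart.

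S100A8, the smaller calprotectin subunit, had 156, 149 and 204 CPM in the 3 NB4 libraries given ATRA, against 0.431, 0.246 and 0.474 CPM in untreated NB4. In HL-60 it had 24.6, 24.2 and 30.2 CPM with ATRA, against 0.454, 0.717 and 0.365 CPM untreated. Every library given ATRA lay far above every untreated library. The log2 change was 8.83 ± 0.20 in NB4 (SE; 455-fold, adjusted p = 1.06e-19) and 5.69 ± 0.17 in HL-60 (51.5-fold, adjusted p = 6.16e-18). Ranked over all groups, S100A8 was highest in NB4 with both drugs (219 ± 39.8 CPM) and next in NB4 with ATRA (170 ± 30.1), whose libraries overlapped. HL-60 with ATRA (26.3 ± 3.35) and with both drugs (23.0 ± 1.75) also overlapped. They were followed by NB4 with ATO (2.24 ± 0.27), HL-60 with ATO (1.65 ± 0.208), and the overlapping untreated groups of HL-60 (0.512 ± 0.183) and NB4 (0.384 ± 0.121).

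S100A9, the other calprotectin subunit, followed the same course at a higher count. With ATRA it had 462, 408 and 666 CPM in NB4, against 1.39, 1.87 and 1.34 CPM in untreated NB4. In HL-60 the values were 80.4, 81.9 and 74.8 CPM with ATRA, against 1.48, 2.3 and 1.69 CPM untreated. Again no treated library came near an untreated one. S100A9 rose by 8.46 ± 0.20 on the log2 scale in NB4 (352-fold, adjusted p = 1.57e-19) and by 5.46 ± 0.12 in HL-60 (44.0-fold, adjusted p = 3.93e-20).

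S100A12, the other neutrophil member, was at 0 counts in all 6 untreated libraries, where a floor of 3 counts per library allows up to 0.0701 CPM in NB4 and 0.0656 CPM in HL-60. Floors and count intervals cover counting error only and take counts as independent. Both may be too tight, since even numbers prevailed among low counts and a fragment may have been counted more than once. With ATRA it had 7.7, 6.46 and 9.07 CPM in NB4 (962 counts in sum) and 4.32, 2.75 and 4.39 CPM in HL-60 (571 counts). All 6 libraries given ATRA thus held the transcript. S100A12 was at least 110-fold higher with ATRA in NB4 (adjusted p = 3.73e-11) and at least 58.3-fold higher in HL-60 (adjusted p = 1.23e-08). The fitted fold against a group at 0 has no fixed size, so only these bounds are given.

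S100P, which binds ezrin and acts on RAGE when secreted, rose less steeply. With ATRA it had 50.7, 39.3 and 52.1 CPM in NB4, against 6.33, 8.27 and 7.93 CPM untreated. HL-60 had 8.23, 7.46 and 8.36 CPM with ATRA, against 2.34, 2.23 and 1.14 CPM untreated. The groups did not overlap in either line, and the log2 change was 2.72 ± 0.12 in NB4 (6.61-fold, adjusted p = 1.44e-14) and 2.11 ± 0.17 in HL-60 (4.32-fold, adjusted p = 6.51e-10). HL-60 cells given ATRA thereby reached 8.02 ± 0.49 CPM, which overlapped the 7.51 ± 1.04 CPM of untreated NB4 cells.

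S100A11, an annexin partner that was already among the highest members without drug, rose by 0.68 ± 0.07 in NB4 and 0.80 ± 0.06 in HL-60 on the log2 scale. Its values were 105, 96.1 and 111 CPM in NB4 with ATRA, against 65.3, 68.1 and 70.4 CPM untreated (adjusted p = 2.7e-08). In HL-60 they were 194, 205 and 205 CPM with ATRA, against 116, 129 and 112 CPM untreated (adjusted p = 2.69e-10). The treated libraries lay above all untreated ones in each line.

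S100A4, a partner of non-muscle myosin best known from motile and metastatic cells, went the other way. HL-60 cells had 98.9, 97.9 and 101 CPM with ATRA, against 136, 143 and 127 CPM untreated, a fall with no overlap (log2 change -0.40 ± 0.05, adjusted p = 1.43e-06). NB4 cells had 48.6, 42.3 and 37.0 CPM with ATRA, against 47.9, 52.6 and 53.9 CPM untreated, and these groups overlapped. The NB4 change of -0.21 ± 0.09 passed narrowly (adjusted p = 0.04995). It was lost with the replicate block (-0.21, adjusted p = 0.0612), with a filter of at least 1 CPM in 3 libraries (adjusted p = 0.05145) and with the compared groups fitted alone (adjusted p = 0.0691). It was also lost without NB4 untreated replicate 2 (adjusted p = 0.103) or 3 (0.135), and without NB4 ATRA replicate 2 (0.0713) or 3 (-0.13, adjusted p = 0.23); without NB4 ATRA replicate 1 it came to -0.34.

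S100A6, the CACYBP partner also called calcyclin, moved little with ATRA. NB4 had 4.2, 3.12 and 4.48 CPM with ATRA, against 3.79, 4.21 and 4.96 CPM untreated, which overlapped (log2 change -0.07, 95% interval -0.44 to 0.31). HL-60 had 41.9, 43.8 and 41.8 CPM with ATRA, against 36.0, 40.8 and 36.1 CPM untreated. Here the libraries did not overlap and the gene rose by 0.22 ± 0.07 on the log2 scale (adjusted p = 0.00852), a call that was absent when all 24 libraries were fitted together (0.21, adjusted p = 0.113).

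ATO alone raised 6 of the 7 genes in each line and lowered none. In NB4, 21.2% of all tested genes were called higher and 19.6% lower with ATO, and in HL-60 16.5% were called higher and 12.1% lower. The member that was not called was S100A12 in both lines, with 6 counts over the 3 NB4 libraries and 4 counts over the 3 HL-60 libraries, which is below the floor. DESeq2 (adjusted p = 0.0482) and a test of every gene with at least 1 read (adjusted p = 0.0354) did call S100A12 in NB4, where all 6 counts came from 1 library. The median log2 change of the other 6 genes was 1.14 in NB4 and 1.24 in HL-60, beside 0.02 over all tested genes in each line.

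S100A8 had 2.5, 2.27 and 1.96 CPM in NB4 with ATO and 1.88, 1.48 and 1.58 CPM in HL-60 with ATO, above all the untreated values given earlier. Its log2 change was 2.42 ± 0.30 in NB4 (5.34-fold, adjusted p = 1.24e-06) and 1.63 ± 0.22 in HL-60 (3.09-fold, adjusted p = 6.19e-06). S100A9 had 15.1, 14.5 and 16.6 CPM in NB4 with ATO and 5.49, 6.08 and 6.33 CPM in HL-60 with ATO. These libraries, too, did not overlap the untreated ones, and S100A9 rose by 3.23 ± 0.20 in NB4 (9.38-fold, adjusted p = 4.81e-11) and 1.67 ± 0.14 in HL-60 (3.18-fold, adjusted p = 5.83e-09). With ATO alone both calprotectin genes therefore stayed well below their level with ATRA, where S100A8 averaged 170 CPM and S100A9 averaged 512 CPM in NB4.

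S100P had 24.8, 22.4 and 23.5 CPM in NB4 with ATO and 5.9, 5.99 and 6.37 CPM in HL-60 with ATO, with log2 rises of 1.54 ± 0.12 and 1.65 ± 0.18. Neither line's treated libraries overlapped its untreated ones. S100A11 had 88.3, 82.3 and 90.9 CPM in NB4 with ATO, a small rise of 0.25 ± 0.07 (adjusted p = 0.00712). In HL-60 it had 215, 218 and 221 CPM with ATO and rose by 0.85 ± 0.06 (adjusted p = 7.99e-10). S100A4 and S100A6, which ATRA had lowered or barely moved, were higher with ATO. S100A4 had 87.8, 76.8 and 85.4 CPM in NB4 with ATO, all above the untreated libraries, and rose by 0.59 ± 0.09 (adjusted p = 1.37e-05). In HL-60 it had 142, 157 and 157 CPM with ATO, which overlapped the untreated range, and its rise of 0.15 ± 0.05 (adjusted p = 0.0376) was lost without HL-60 untreated replicate 1 (adjusted p = 0.0768) or 3 (0.213) and without HL-60 ATO replicate 2 (0.219) or 3 (0.166). That call was also lost when every gene with at least 1 read was tested (adjusted p = 0.0508) and when all 24 libraries were fitted together (adjusted p = 0.189). S100A6 had 9.28, 6.55 and 7.46 CPM in NB4 with ATO and 60.3, 60.2 and 59.5 CPM in HL-60 with ATO. Both lines' values stood clear of their untreated libraries, with log2 rises of 0.74 ± 0.17 (adjusted p = 0.00162) and 0.65 ± 0.07 (adjusted p = 1.08e-07).

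**Figure D2:**
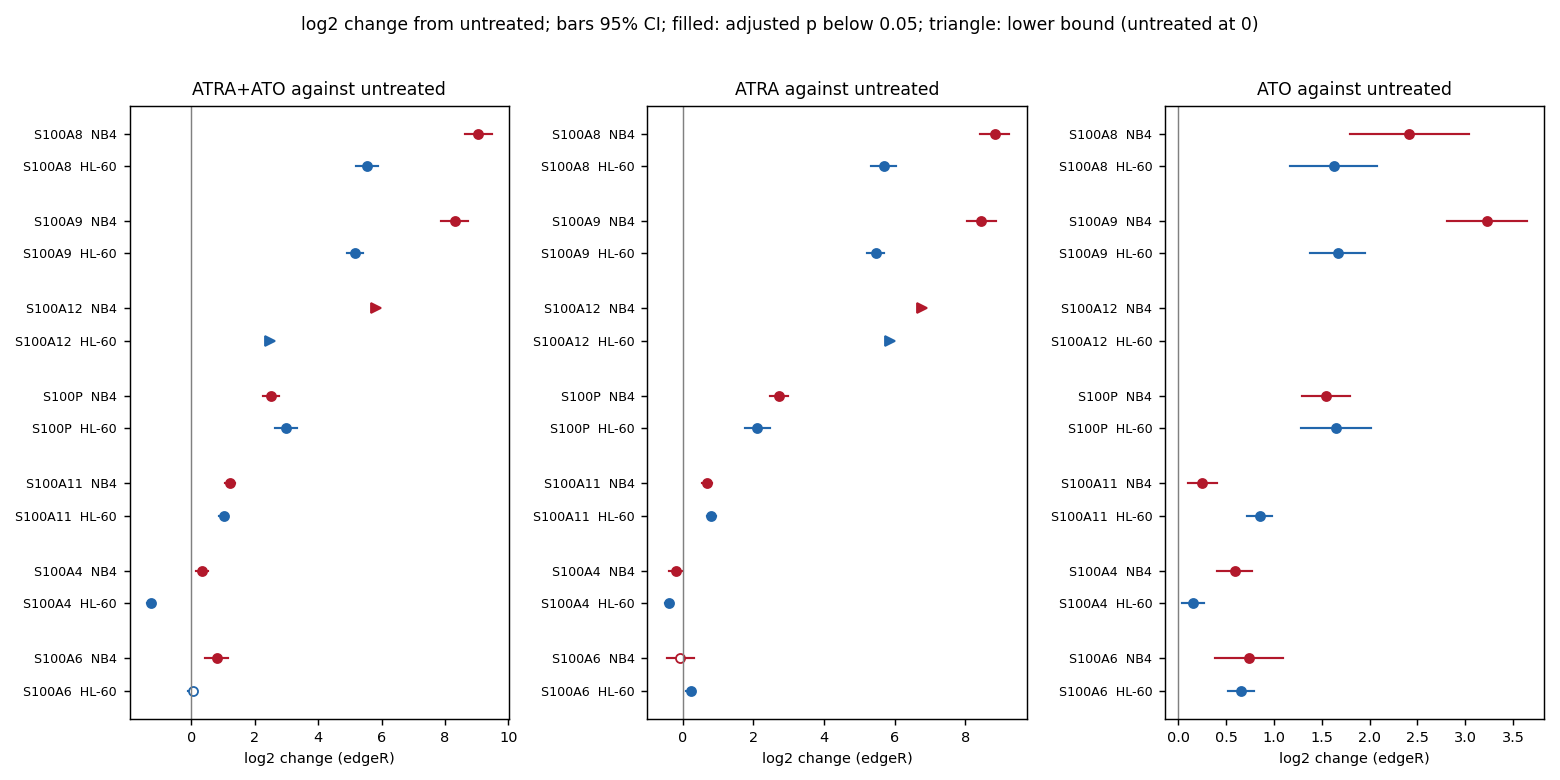
Log2 change (x axis) of the 7 genes in NB4 (red) and HL-60 (blue) with both drugs, ATRA or ATO, each against untreated cells; bars are 95% intervals, filled points have an adjusted p below 0.05, and triangles mark the lower bound for S100A12, which is not drawn for ATO. S100A8 and S100A9 lie at 8.3 to 9.1 in NB4 with ATRA or both drugs, against 5.2 to 5.7 in HL-60.

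With both drugs, all 7 genes rose in NB4 and none fell, while 35.4% of all tested genes were called higher and 32.8% lower. In HL-60, 5 rose (30.7% of all genes called higher), S100A4 fell (29.7% called lower) and S100A6 was not called. The median log2 change of the 7 genes was 2.51 in NB4 and 2.49 in HL-60 with S100A12 at its bound, beside 0.05 and -0.003 over all tested genes. The HL-60 median is the S100A12 bound itself, so 2.49 is a lower bound that depends on the floor of 3 counts. Taking the fitted S100A12 change instead, which has no fixed size, the HL-60 median was 2.99. S100A8 had 182, 215 and 261 CPM in NB4 with both drugs and 21.8, 22.2 and 25.0 CPM in HL-60, and rose by 9.05 ± 0.20 and 5.53 ± 0.17 on the log2 scale. S100A9 had 429, 515 and 582 CPM in NB4 and 55.7, 70.7 and 63.0 CPM in HL-60, and rose by 8.30 ± 0.20 and 5.17 ± 0.12. None of these libraries overlapped the untreated ones of its line. S100A12 had 2.67, 3.62 and 5.74 CPM in NB4 with both drugs, at least 57.2-fold above untreated cells. In HL-60 with both drugs it had 0.315, 0.734 and 0.0529 CPM, the last from 2 counts, and was at least 5.6-fold higher than untreated over the group. Of its 52 counts 38 came from HL-60 combination replicate 2, and without that library the bound was 2.81-fold.

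S100P had 40.4, 49.3 and 45.9 CPM in NB4 with both drugs (log2 change 2.51 ± 0.12) and 13.6, 16.2 and 13.1 CPM in HL-60 (2.99 ± 0.17), clear of the untreated libraries in each line. S100A11 had 158, 175 and 166 CPM in NB4 with both drugs and 211, 253 and 219 CPM in HL-60, rises of 1.21 ± 0.07 and 1.02 ± 0.06 without overlap. S100A4 split the lines. In NB4 it had 65.0, 71.8 and 67.7 CPM with both drugs, above every untreated library (0.33 ± 0.09, adjusted p = 0.00223), whereas in HL-60 it had 52.7, 52.6 and 51.9 CPM, less than every other HL-60 library (-1.29 ± 0.06, adjusted p = 3.9e-15). HL-60 cells given both drugs thus came down to the S100A4 level of untreated NB4 cells (51.5 ± 3.15 CPM), and these libraries overlapped. S100A6 had 7.06, 9.28 and 7.33 CPM in NB4 with both drugs, a rise of 0.79 ± 0.17 (adjusted p = 0.000331). In HL-60 its 34.5, 39.4 and 36.0 CPM overlapped the untreated libraries (0.04, 95% interval -0.10 to 0.18), with the sign turning under scaling by library size alone (-0.04).

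Adding ATO to ATRA left the calprotectin genes near their ATRA level and lowered S100A12. In NB4, 3 of the 7 genes were higher with both drugs than with ATRA (16.8% of all genes called higher), 1 was lower (21.2% called lower) and 3 were not called. In HL-60, 2 were higher (22.0% of all genes) and 4 lower (21.9% of all genes), with 1 not called. The median change of the 7 genes was 0.22 in NB4 and -0.18 in HL-60 on the log2 scale, beside -0.01 over all tested genes in each line. S100A12 changed the most. It fell by 1.10 ± 0.28 in NB4 (adjusted p = 0.00425; DESeq2 gave -1.08 with an adjusted p of 0.0522) and by 3.25 ± 0.48 in HL-60 (adjusted p = 1.14e-05), and in neither line did the libraries with both drugs overlap those with ATRA alone. Without HL-60 replicate 2 of the combination, the highest of its group, the HL-60 value was -4.32.

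S100A8 did not pass in either line, at 0.22 in NB4 (95% interval -0.02 to 0.46, adjusted p = 0.138) and -0.16 in HL-60 (-0.38 to 0.07, adjusted p = 0.265). The NB4 value was called without NB4 ATRA replicate 3 (0.39, adjusted p = 0.00443) or without NB4 combination replicate 1 (0.36, adjusted p = 0.0197). With all libraries it was called under scaling by library size alone (0.37, adjusted p = 0.0144) and when every gene with at least 1 read was tested (0.25, adjusted p = 0.00375). S100A9 was at -0.16 in NB4 (-0.42 to 0.11, adjusted p = 0.368); it was called lower without NB4 ATRA replicate 2 (-0.30, adjusted p = 0.0275) and turned sign without NB4 ATRA replicate 3 (0.09). In HL-60 it was lower by 0.29 with both drugs (log2 change -0.29 ± 0.09, adjusted p = 0.00906), a call lost without HL-60 combination replicate 1 (-0.21, adjusted p = 0.0566) and with all 24 libraries fitted together (adjusted p = 0.0627). S100P did not pass in NB4 (-0.21, 95% interval -0.44 to 0.01), although it was called without NB4 ATRA replicate 2 (-0.33, adjusted p = 0.00711). In HL-60 S100P rose further with both drugs, by 0.88 ± 0.15 (adjusted p = 3.93e-05), with no overlap between the groups.

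S100A4 moved in opposite directions when ATO was added to ATRA, higher by 0.53 ± 0.09 in NB4 (adjusted p = 5.14e-05) and lower by 0.88 in HL-60 (log2 change -0.88 ± 0.06, adjusted p = 1.56e-11). S100A6 did likewise, at 0.86 ± 0.17 in NB4 (adjusted p = 0.000454) and -0.18 ± 0.07 in HL-60 (adjusted p = 0.0368), where the call was lost without any 1 of HL-60 ATRA replicates 1 to 3 (adjusted p = 0.0511, 0.133 and 0.0597) and without HL-60 combination replicate 1 (0.133) or 3 (0.0943). The HL-60 call for S100A6 was also lost with all 24 libraries fitted together (adjusted p = 0.187) and with the compared groups fitted alone (adjusted p = 0.0544). S100A11 was higher with both drugs in both lines, by 0.53 ± 0.07 in NB4 (adjusted p = 3.8e-06) and 0.21 ± 0.06 in HL-60 (adjusted p = 0.00709). The HL-60 value was 0.13 without HL-60 combination replicate 2, and its call was lost without HL-60 ATRA replicate 1 (0.18, adjusted p = 0.0564).

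Against ATO alone, the combination raised the neutrophil members again, and these values share the combination libraries with those above. In NB4, 5 of the 7 genes were higher (28.6% of all genes called higher), S100A4 was lower (28.3% called lower) and S100A6 was not called. In HL-60, 5 were higher (27.5% of all genes) and S100A4 and S100A6 were lower (27.0% of all genes). The median log2 change of the 7 genes was 0.97 in NB4 and 1.34 in HL-60, beside 0.01 and -0.01 over all tested genes. S100A8 was higher by 6.63 ± 0.16 in NB4 and 3.90 ± 0.14 in HL-60, and S100A9 by 5.07 ± 0.16 and 3.50 ± 0.10. S100A12 had 534 counts in NB4 with both drugs against 6 with ATO, a ratio of 89.4 after scaling to the library totals (95% counting interval 40.8 to 245), and 52 against 4 counts in HL-60, a ratio of 14.8 (5.43 to 56.2). All 6 counts came from NB4 ATO replicate 2, without which the NB4 value was a bound of at least 59.1-fold. The NB4 ratio was 59.2 without NB4 ATO replicate 1, and the HL-60 ratio was 6.68 without HL-60 combination replicate 2. S100A4 was lower by 1.44 in HL-60 (log2 change -1.44 ± 0.06, adjusted p = 7.46e-16). In NB4 it was at -0.26 ± 0.09 (adjusted p = 0.0138), a call lost without NB4 ATO replicate 1 (adjusted p = 0.0692) or NB4 combination replicate 1 (0.0774). S100A6 fell by 0.61 in HL-60 (log2 change -0.61 ± 0.07, adjusted p = 5.33e-08) and was at 0.06 in NB4 (95% interval -0.29 to 0.40). S100A11 was higher by 0.96 ± 0.07 in NB4 and by 0.17 ± 0.06 in HL-60 (adjusted p = 0.0271), where the groups overlapped and the call was lost without HL-60 ATO replicate 1 (0.15, adjusted p = 0.0868) or HL-60 combination replicate 2 (0.08, adjusted p = 0.199). It was also lost under scaling by library size alone (0.065, adjusted p = 0.376) and with all 24 libraries fitted together (0.16, adjusted p = 0.0510).

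The interaction term asks whether the change with both drugs differed from the sum of the changes with each drug on the log2 scale. In NB4 it was called below 0 for 3 of the 7 genes (12.5% of all genes) and called above 0 for none (6.14% of all genes). In HL-60 it was called below 0 for all 7 (18.1% of all genes) and above 0 for none (14.4% of all genes). The HL-60 call of S100A12 rested on 4 counts with ATO and has no fixed size. Without S100A12, whose untreated libraries are at 0, the median interaction of the other 6 genes was -0.90 in NB4 and -0.93 in HL-60, beside -0.06 over all tested genes in each line. Among these 6 genes S100A9 had the furthest value in both lines, at -3.39 ± 0.24 in NB4 (adjusted p = 1.4e-09) and -1.95 ± 0.16 in HL-60 (adjusted p = 5.72e-09). S100A8 had -2.20 ± 0.33 in NB4 and -1.78 ± 0.25 in HL-60, and S100P had -1.75 ± 0.16 in NB4 and -0.77 ± 0.23 in HL-60 (-0.51 without HL-60 untreated replicate 3). For these genes each drug alone raised the transcript, and the log2 change with both drugs was less than the 2 log2 rises added together. That is less than the product of the 2 folds, and it does not compare rises in CPM.

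S100A4 (-1.03 ± 0.08), S100A6 (-0.83 ± 0.09) and S100A11 (-0.64 ± 0.09) had interactions below 0 in HL-60, and the S100A4 libraries with both drugs lay under those of either drug alone. In NB4 the same genes were not called, at -0.05 for S100A4, 0.12 for S100A6 and 0.28 for S100A11 (95% interval 0.07 to 0.49, adjusted p = 0.0559). The S100A11 value in NB4 was called without NB4 untreated replicate 1 (adjusted p = 0.0489), NB4 ATRA replicate 3 (0.0224) or NB4 combination replicate 1 (0.0324). With all libraries it was called by DESeq2, with either other scaling, with either other filter and with all 24 libraries fitted together (0.29 to 0.32, adjusted p = 0.0210 to 0.0385), and not with the replicate block or in the fits without another library. S100A12 in NB4 was called by DESeq2 (adjusted p = 0.0196), when every gene with at least 1 read was tested (adjusted p = 0.0092) and without NB4 ATRA replicate 2 (adjusted p = 0.0437). The S100A12 call in HL-60 (adjusted p = 0.0249) rested on the 4 counts with ATO and was lost without HL-60 ATO replicate 2 (adjusted p = 0.0999) or 3 (0.1).

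**Figure D3:**
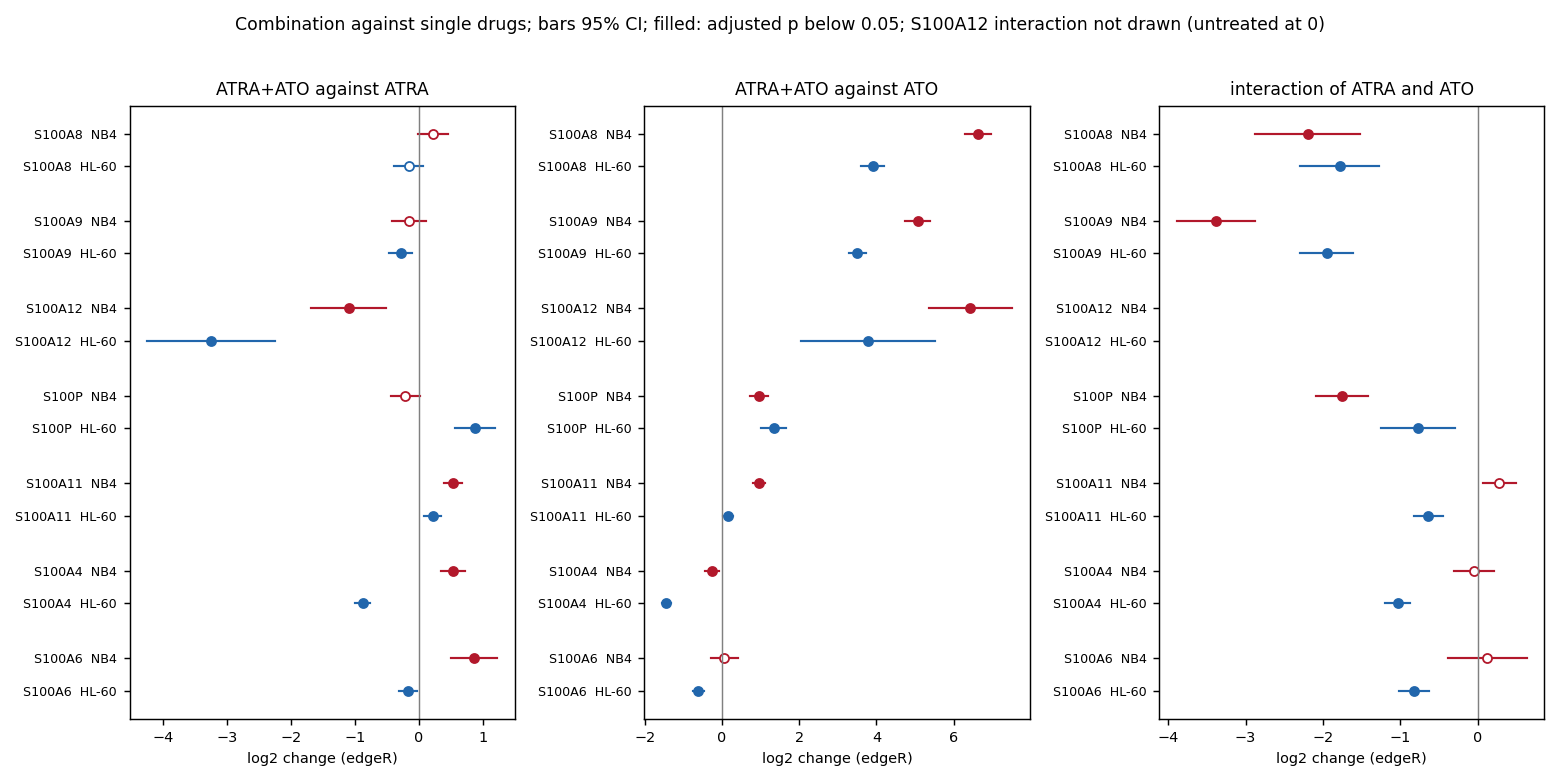
Log2 change (x axis) of the 7 genes in NB4 (red) and HL-60 (blue) for both drugs against ATRA, both drugs against ATO, and the interaction of the drugs; bars are 95% intervals and filled points have an adjusted p below 0.05. S100A12 is not drawn for the interaction, since its untreated libraries are at 0. S100A4 lies right of 0 in NB4 (0.53) and left of 0 in HL-60 (-0.88) in the comparison with ATRA, and the interactions of S100A8, S100A9 and S100P lie left of 0 in both lines.

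The lines differed before any drug. In untreated NB4 cells S100P was higher than in untreated HL-60 cells (1 of the 7 genes, 29.1% of all 17930 genes called higher), and S100A4, S100A6 and S100A11 were lower (34.0% called lower). S100P had the values given above, 7.51 ± 1.04 CPM in NB4 against 1.90 ± 0.66 CPM in HL-60, a log2 difference of 1.82 ± 0.17 (adjusted p = 8.02e-11). S100A6 differed the most, at 4.32 ± 0.59 CPM in NB4 against 37.6 ± 2.71 CPM in HL-60 (-3.27 ± 0.13, adjusted p = 2.73e-20). S100A4 was at -1.55 ± 0.08 and S100A11 at -0.96 ± 0.07, and in these genes too the libraries of the lines did not overlap. S100A8 (-0.58, 95% interval -1.39 to 0.23) and S100A9 (-0.43, -0.97 to 0.11) were not called, overlapped between the lines, and without HL-60 untreated replicate 2 were at -0.21 and -0.20. S100A9 was called when every gene with at least 1 read was tested (-0.43, adjusted p = 0.00551). S100A12 had no count to compare.

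The response to ATRA was larger in NB4 than in HL-60 for 3 of the 7 genes (17.7% of all genes called higher) and smaller for none (16.8% called lower). These were S100A8, by 3.13 ± 0.42 on the log2 scale (adjusted p = 4.37e-07), S100A9, by 2.99 ± 0.29 (adjusted p = 9.42e-10), and S100P, by 0.60 ± 0.22 (adjusted p = 0.0339). The S100P call was lost without NB4 untreated replicate 1 (0.50, adjusted p = 0.102), NB4 ATRA replicate 1 (0.54, 0.0779) or 3 (0.56, 0.062), HL-60 untreated replicate 1 (0.49, 0.14) or 2 (0.49, 0.149) and HL-60 ATRA replicate 2 (0.59, 0.0579), and with the compared groups fitted alone (0.58, 0.0725). S100A11 and S100A6 were not called, at -0.13 and -0.30, and neither was S100A4 (0.19, adjusted p = 0.189), which was called without NB4 ATRA replicate 3 (0.31, adjusted p = 0.0183). For S100A12 no difference of responses could be estimated because both untreated groups are at 0. Its level with ATRA was 2.03 times as high in NB4 as in HL-60, in libraries that did not overlap.

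For ATO the response was larger in NB4 for 2 of the 7 genes (7.11% of all genes called higher) and smaller for 1 (6.0% called lower). S100A9 differed by 1.59 ± 0.31 (adjusted p = 0.000442) and S100A4 by 0.46 ± 0.11 (adjusted p = 0.00266), and S100A11 responded less in NB4 (-0.57 ± 0.10, adjusted p = 9.17e-05). The difference for S100A8 was 0.82, with a 95% interval from -0.10 to 1.74. With both drugs the response was larger in NB4 for 4 of the 7 genes (24.9% of all genes called higher) and smaller for none (22.7% called lower). S100A8 differed by 3.55 ± 0.43, S100A9 by 3.15 ± 0.29, S100A4 by 1.64 ± 0.11 and S100A6 by 0.77 ± 0.17. S100A11 was not called at 0.22 (adjusted p = 0.0622), and was called with the replicate block (0.22, adjusted p = 0.0411), under scaling by library size alone (0.36, adjusted p = 0.00198) and with a filter of at least 1 CPM in 3 libraries (0.25, adjusted p = 0.0273). It was also called without NB4 combination replicate 1 (0.26, adjusted p = 0.0403), HL-60 untreated replicate 3 (0.27, 0.0321) or HL-60 combination replicate 2 (0.31, 0.00706). S100P was at -0.45 (adjusted p = 0.0899), and was called when every gene with at least 1 read was tested (-0.48, adjusted p = 0.0201), and without NB4 untreated replicate 1 (-0.56, adjusted p = 0.042) or HL-60 untreated replicate 1 (-0.60, 0.0403) or 2 (-0.60, 0.0467). S100A12 with both drugs was 10.9 times as high in NB4 as in HL-60, from 534 against 52 counts, and 21.8 times as high without HL-60 combination replicate 2.

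Because calprotectin holds its subunits in equal number, the ratio of S100A8 to S100A9 counts within a library was also compared. It is a ratio of transcript counts, not corrected for exon length (1006 bases in S100A8 and 577 in S100A9). The balance of the proteins was not measured. NB4 libraries had 0.424, 0.417 and 0.448 S100A8 counts per S100A9 count with both drugs, 0.338, 0.364 and 0.307 with ATRA, 0.165, 0.156 and 0.118 with ATO and 0.31, 0.132 and 0.355 without drug. HL-60 libraries had 0.391, 0.314 and 0.397 with both drugs, 0.306, 0.295 and 0.404 with ATRA, 0.342, 0.244 and 0.25 with ATO and 0.306, 0.311 and 0.216 untreated. In each line the libraries with both drugs lay above the untreated ones, and the other treated groups overlapped them. With both drugs the log2 ratio was higher than in untreated cells by 0.82 in NB4 and 0.41 in HL-60 (exact two-sided permutation p = 0.1 each, the smallest p that 3 against 3 libraries allow; 0.3 after adjustment over 6 comparisons). The NB4 difference was 0.37 without NB4 untreated replicate 2, and the HL-60 difference was 0.24 without HL-60 untreated replicate 3. The remaining 4 comparisons had exact p-values from 0.3 to 1.0. The untreated ratios rest on 50 counts of S100A8 in NB4 and 73 in HL-60, summed over libraries.

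**Figure D4:**
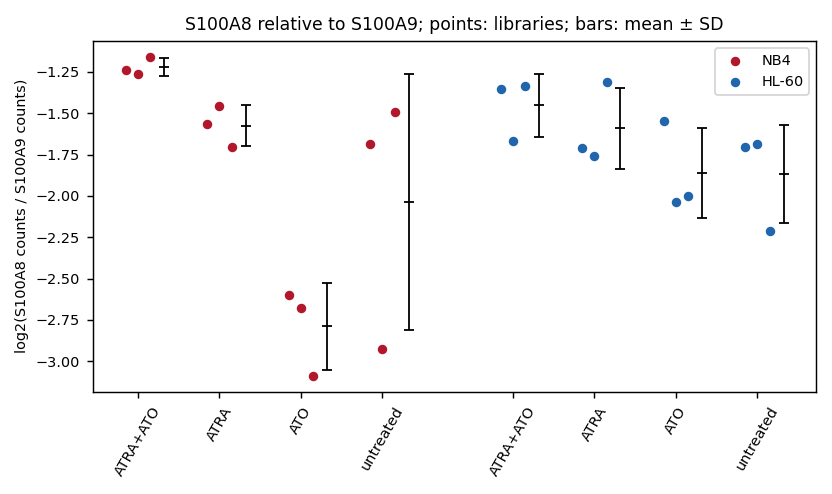
Log2 ratio of S100A8 to S100A9 counts (y axis) in each library of NB4 (red) and HL-60 (blue), with the combination, ATRA, ATO and untreated groups from left to right; black marks are means ± SD over 3 libraries. The combination libraries of NB4 lie close together at a mean of -1.22, whereas the untreated NB4 libraries spread around -2.04 with an SD of 0.78.

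Genes whose log2 CPM ran most closely with each member over the 24 libraries were looked up among 10411 protein-coding genes outside the S100 family that averaged 5 CPM or more in some group. Between members, S100A8 and S100A9 correlated at r = 0.991. The libraries form 8 groups, so a correlation mostly describes differences between groups, and it is given as a description. Outside the family, S100A8 ran most closely with IRF1 (Pearson r = 0.990, Spearman rho = 0.943), AQP9 (0.990, 0.957) and ADGRE3 (0.988, 0.963). For S100A9 they were AQP9 (0.993, 0.959), HK3 (0.992, 0.977) and TSPAN14 (0.987, 0.975), and TSPAN14 came first for S100A12 as well (0.951, 0.935), ahead of BATF2 and MTFR1L. S100P ran with FUCA2 (0.983, 0.943), WIPI1 (0.975, 0.963) and CDS2 (0.961, 0.953), and S100A11 with MAST3 (0.982, 0.978), FTL (0.975, 0.976) and NPC1 (0.973, 0.960). S100A4 was matched best by TRAIP (0.958, 0.925), TPGS2 (0.950, 0.962) and CIZ1 (0.949, 0.936), and S100A6 by MEA1 (0.989, 0.959), SULT1C2 (0.989, 0.940) and PPP2R5D (0.986, 0.900). Places are by Pearson r and depended on the measure. By Spearman rho, IRF1, AQP9 and ADGRE3 ranked 64, 28 and 18 for S100A8, and PPP2R5D ranked 98 for S100A6. MAST3 for S100A11 and TSPAN14 for S100A12 ranked 1 by both. With a prior count of 0.5 in place of 2, AQP9 ranked 11 for S100A8 and 7 for S100A9.

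Of the other 14 S100 genes in the table, 9 stayed below a mean of 1 CPM in every group, 4 of them without a count in any library. The 5 above that level did not move as a block. S100B, better known from glia, had 18.8 ± 0.87 CPM in NB4 with both drugs, 4.89 ± 1.15 with ATRA, 5.83 ± 0.44 with ATO and 1.79 ± 0.36 untreated, and its rise with both drugs (3.31 ± 0.17, adjusted p = 6.14e-14) was larger than with ATRA alone (1.80 ± 0.15 for both drugs against ATRA, adjusted p = 5.13e-09). In HL-60 S100B rose by 0.92 ± 0.16 with both drugs, 0.81 ± 0.16 with ATRA and 0.88 ± 0.16 with ATO. S100A10, the annexin A2 partner, fell with ATRA in both lines, to 12.9 ± 1.99 CPM against 21.8 ± 0.20 CPM untreated in NB4 (-0.69 ± 0.13, adjusted p = 7.11e-05) and to 1.44 ± 0.06 CPM against 6.15 ± 0.34 CPM untreated in HL-60 (-2.05 ± 0.16, adjusted p = 4.55e-10). S100A1 rose in NB4 with ATO (1.65 ± 0.31) and with both drugs (1.57 ± 0.31), and was not called with ATRA (-0.04). Its gene overlaps S100A13 on the opposite strand, and whether counting used strand is not given in the sources used here. S100A13 itself fell in HL-60 with both drugs (-0.71 ± 0.25, adjusted p = 0.017). S100Z, at 64 counts with ATRA, 109 with ATO and 180 with both drugs against 8 counts in untreated NB4, rose with each of them in that line.

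**Figure D5:**
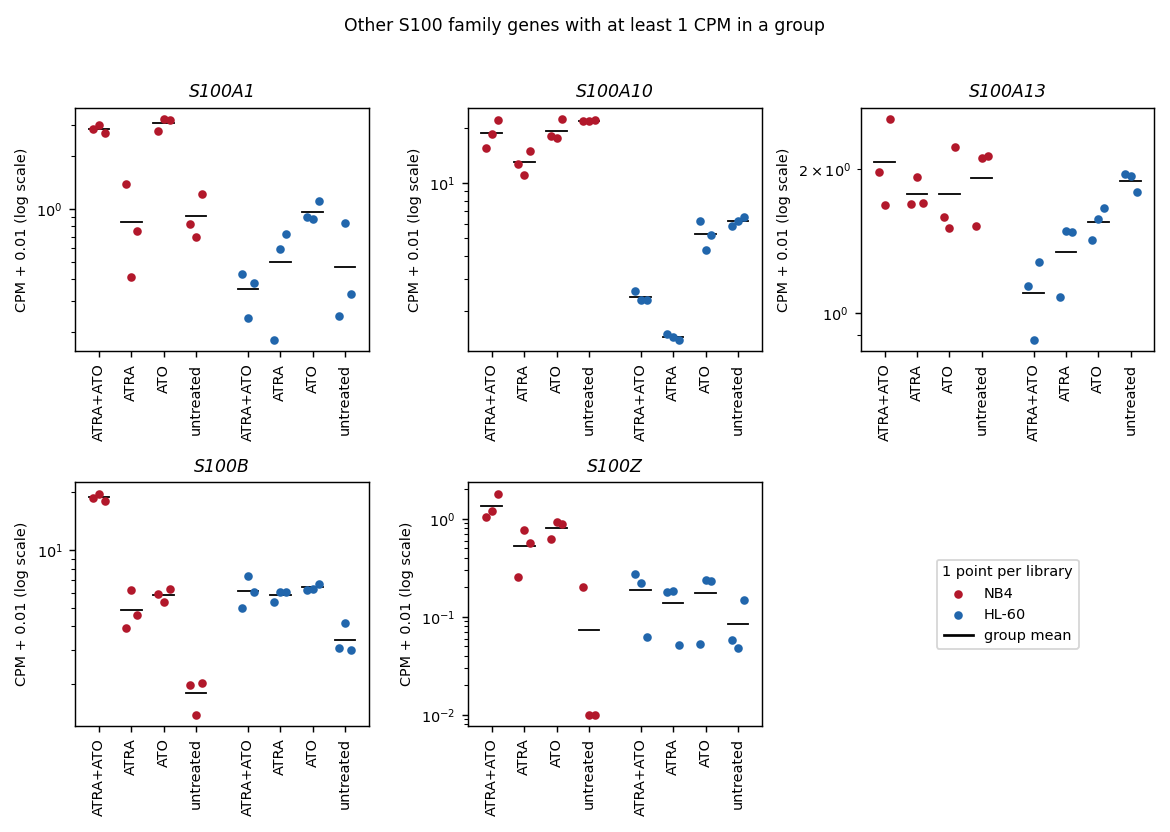
CPM plus 0.01 (log axis) of the 5 other S100 genes that averaged 1 CPM or more in a group, in each library of NB4 (red) and HL-60 (blue), with the combination, ATRA, ATO and untreated groups from left to right and a black line at each group mean. S100B in NB4 is highest with both drugs (18.8 CPM), and S100A10 in HL-60 is lowest with ATRA (1.44 CPM).

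The counts for the lists that follow stand beside 31.3% of all tested genes called higher and 28.6% lower with ATRA in NB4, and 25.2% higher and 23.3% lower in HL-60. Of 12 receptor and surface-partner genes, 9 of the 11 tested rose with ATRA in NB4 and none fell (median log2 change 1.70), and 5 of 10 tested rose and 1 fell in HL-60 (median 1.13). Among them were ITGB2, the beta chain of the integrins that calprotectin helps activate, at 3.30 ± 0.11 in NB4 and 1.14 ± 0.05 in HL-60, and TLR4 at 1.41 ± 0.11 and 1.12 ± 0.07. LY96, the co-receptor of TLR4, rose by 2.33 ± 0.40 with ATRA in NB4 and by more with both drugs (5.06 ± 0.35). Among 12 myeloid transcription factors named as regulators of S100A8 and S100A9, 6 rose and 4 fell with ATRA in NB4, and 6 rose and 3 fell in HL-60. CEBPB rose by 4.56 ± 0.10 and 3.85 ± 0.11, CEBPE by 2.16 ± 0.07 and 2.27 ± 0.08, and MYB fell by 1.22 and 1.12 on the log2 scale. Of 12 intracellular partners, 4 rose and 5 fell with ATRA in NB4 and 5 rose and 6 fell in HL-60, with MYH9, the myosin bound by S100A4, at 0.46 ± 0.06 and 0.44 ± 0.05 and CACYBP at -0.98 ± 0.07 and -0.41 ± 0.04. Of 16 other EF-hand genes, 9 rose and 5 fell with ATRA in NB4, and 3 rose and 6 fell in HL-60. Of 16 non-S100 genes around the S100 cluster on chromosome 1, 14 were tested in NB4, where 6 rose and 3 fell with ATRA (median 0.13), and 13 in HL-60, where 4 rose and 2 fell (median 0.07).

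Library totals ran from 37811652 to 57795273 counts. The 8 granule genes of promyelocytes, among them MPO, summed to 2332 to 3071 CPM with both drugs, 6234 to 6731 CPM with ATRA and 8617 to 8663 CPM with ATO in NB4, against 9757 to 10486 CPM untreated. In HL-60, where S100A4 and S100A12 were lower with both drugs than with ATRA, they summed to 142 to 190 CPM with both drugs, 1085 to 1207 CPM with ATRA and 1906 to 2034 CPM with ATO, against 3504 to 3897 CPM untreated. The sum of 12 neutrophil maturation markers was 885 to 944 CPM with both drugs, 621 to 775 CPM with ATRA and 126 to 134 CPM with ATO in NB4, against 73.5 to 87.8 CPM untreated. In HL-60 it was 236 to 264 CPM with both drugs, 442 to 478 CPM with ATRA and 178 to 204 CPM with ATO, against 179 to 188 CPM untreated, and LCN2 was at 0 in all 8 groups. The sum of 10 monocyte markers was 177 to 209 CPM with both drugs, 213 to 248 CPM with ATRA and 263 to 276 CPM with ATO in NB4, against 213 to 238 CPM untreated. In HL-60 the monocyte sum was 404 to 430 CPM with both drugs, 773 to 797 CPM with ATRA and 851 to 900.5 CPM with ATO, against 1033 to 1114 CPM untreated. A sum mostly follows its most abundant genes, and single monocyte markers moved both ways. With ATRA, 5 of 8 tested were called higher and 3 lower in NB4 (31.3% and 28.6% of all genes). In HL-60, 4 of 9 tested were called higher and 2 lower with ATRA (25.2% and 23.3% of all genes). Promyelocyte genes also split in NB4, where 3 of 7 tested were called higher and 4 lower with ATRA. Both drugs together gave 2 higher and 5 lower there (35.4% and 32.8% of all genes). HL-60 had 1 of 8 promyelocyte genes called higher and 7 lower with ATRA. Among markers of lymphoid, erythroid and other blood cells, MS4A1, HBB and PF4 were at 0 in all 8 groups. The 12 markers of that list summed to 167 to 184 CPM with both drugs, 85.6 to 114 CPM with ATRA and 97.8 to 107 CPM with ATO in NB4, against 36.3 to 38.6 CPM untreated. In HL-60 they summed to 75.5 to 96.9 CPM with both drugs, 94.0 to 94.8 CPM with ATRA and 85.9 to 89.8 CPM with ATO, against 43.9 to 51.0 CPM untreated. Of the 6 tested in NB4, 5 were called higher with ATRA, 6 with ATO and 5 with both drugs, and none lower. Over all genes, 31.3%, 21.2% and 35.4% were called higher. Of the 4 tested in HL-60, 2, 3 and 2 were called higher and none lower, beside 25.2%, 16.5% and 30.7% of all genes called higher. The part of a changed mix of cell states in the S100 levels was not tested.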

How the data were processed

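Gene counts were deposited by the authors as 1 table of 24 libraries. The submitters' processing notes name fastp, HISAT2, featureCounts and DESeq2 and the build GRCh38. Per the labels' protocols the libraries were poly(A)-selected and sequenced as 150-base pairs. Not given in the sources used here are the annotation release, the strand setting and the unit counted (reads or pairs). Even numbers made up 74.4% of counts from 1 to 9 and 51.5% of counts of 500 or more, so 2 counts may be 1 fragment.

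Counts were tested with edgeR 4.0.16 (R 4.3.3; filterByExpr, TMM, quasi-likelihood F test) in a fit of the 12 libraries of a line (8 residual degrees of freedom), or of all 24 for line differences (16). Benjamini-Hochberg adjustment ran over all tested genes of each of 16 comparisons. A standard error is the log2 change divided by the square root of F. CPM are deposited counts scaled to a library total of 1000000. The 7 genes and all lists were chosen with earlier results of these data known. Members are all described. Other S100 genes are named from a mean of 1 CPM in a group. List genes come from the 4 tested genes per list with the smallest p for NB4 with both drugs against untreated. Not all of these are named. Likeness names the 3 highest Pearson correlations of log2 CPM (prior count 2) among protein-coding genes outside the S100 family.

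Batch numbers come from the labels. Between libraries that share a number, residuals correlated at -0.0812 to 0.0383 (NB4) and -0.00807 to 0.0589 (HL-60), with 18 pairs in either line, and no batch term entered the main model. Alternatives were a replicate block, DESeq2 1.42.0, its size factors, library sizes alone, other filters, each library left out, and other sets of samples. Leaving out libraries for the S100A12 bounds and ratios was chosen after seeing the data. Promoters came from RefSeq (GRCh38.p14), where all 7 genes matched. The fits were tested on simulated data. Plots and tables used Python 3.11.15 with pandas 2.3.3, numpy 2.4.6, scipy 1.17.1 and matplotlib 3.10.9.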

Additional observations from a re-analysis of the deposited data

Results flagged for a closer look

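The responses of the lines to the same drug differed by a test of the difference itself (NB4 minus HL-60, log2 scale, edgeR) for 10 values. With ATRA the difference was 3.13 for S100A8, 2.99 for S100A9 and 0.60 for S100P. With ATO it was 0.46 for S100A4, 1.59 for S100A9 and -0.57 for S100A11. With both drugs it was 1.64 for S100A4, 0.77 for S100A6, 3.55 for S100A8 and 3.15 for S100A9. The S100A4 value with both drugs pairs a rise in NB4 with a fall in HL-60. The median difference over all tested genes was 0.03 with ATRA, 0.02 with ATO and 0.11 with both drugs.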

How the results depend on the processing

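The count of called genes among the 7 kept within 1.5 times in each comparison under each setting tried, except the NB4 interaction: 3 were called, and 5 by DESeq2 or when each gene with at least 1 read was tested, with S100A11 and S100A12 added; the cause was not tested. Scaling by library size alone turned S100A6 in HL-60 with both drugs to -0.038. With 1 library left out, values of uncalled changes that turned sign ran from -0.19 to 0.071 (S100A6, NB4 ATRA), -0.30 to 0.093 (S100A9, NB4 both drugs against ATRA), -0.097 to 0.20 (S100A6, NB4 both drugs against ATO), -0.14 to 0.064 and -0.028 to 0.27 (S100A4 and S100A6, NB4 interaction), -0.015 to 0.11 (S100A6, HL-60 both drugs), and -0.047 to 0.22 and -0.24 to 0.18 (S100A6 and S100P, line difference with ATO). The S100A8 to S100A9 ratio in HL-60 with ATO, 0.0053 on the log2 scale, ran from -0.17 to 0.097, and was -0.013 with 0.5 counts added to both genes. The replicate block lost the S100A4 call with ATRA in NB4 (-0.21, adjusted p = 0.0612), added S100A11 in the line difference with both drugs (0.22, adjusted p = 0.0411) and changed no other call of the 7 genes.

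Library sizes alone moved the median of all genes by 0.11 in NB4 with ATO, 0.14 in NB4 both drugs against ATRA, -0.10 in HL-60 both drugs against ATO, 0.13 in the line difference with both drugs and 0.13 between untreated lines. The share of calls that were higher went to 69.0% beside 51.9% (NB4 ATO), 68.4% beside 44.3% (NB4 both drugs against ATRA), 39.6% beside 50.5% (HL-60 both drugs against ATO) and 70.4% beside 54.2% (line difference with ATO). S100A12 without ATRA, at 6 and 4 counts with ATO, rests on few counts, and whether depth set that limit was not tested.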
